A study of Bos taurus with 24 samples.

Results

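The 8 h response of Angus fibroblasts to lipopolysaccharide (LPS) was described across all 27550 rows of the count tables that carried a gene symbol out of 59846 rows in all. Dermal fibroblasts, the matrix-producing cells of the skin, had been grown from shoulder biopsies of 4 Angus (beef breed) heifers of like age, and each culture stood for 1 animal. RNA was collected before LPS (0 h) and 8 h after LPS from Escherichia coli had been added at 100 ng/ml, and lysates of duplicate wells were pooled. The samples at 0 h and 8 h were paired by the animal number of the sample title, which gave 4 pairs, or 8 of the 24 samples of the series. The other samples were Angus cultures at 2 h of LPS and cultures of 4 Holstein (dairy breed) heifers at 0 h, 2 h and 8 h, 4 samples per group, and they were used only to show where the Angus response at 8 h differed. No Angus culture kept for 8 h without LPS was analysed here, so LPS and the added time in culture cannot be told apart.

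LPS forms the outer coat of Gram-negative bacteria. It is bound by TLR4 together with LY96 (MD-2) and CD14, and the adaptors MYD88 and TICAM1 (TRIF) pass the signal on. One arm frees nuclear factor kappa B (NF-kB) from its inhibitors and drives chemokine and cytokine genes, which recruit neutrophils and monocytes to the skin. The other arm, through IRF3, can induce type I interferon and, after it, interferon-stimulated genes. Several early products, among them NFKBIA and TNFAIP3, feed back on NF-kB.

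The 8 libraries held 63568687 to 104406293 counts, so that the floor of 3 counts corresponded to 0.029 to 0.047 CPM (counts scaled to a common library size). Levels below are CPM after TMM scaling (trimmed mean of M-values), listed in the order of animals 1 to 4. A level compares 1 gene between samples and not genes with each other, because the counts were not divided by length. The fibroblast identity of the cultures was checked with 14 markers, all of which were detected, and their summed level was 54673 to 70576 CPM at 0 h and 39227 to 60534 CPM at 8 h. A mean under 1 CPM at both hours was found for 8 of 9 keratinocyte, 6 of 7 endothelial, 11 of 12 leukocyte and 3 of 4 Schwann cell markers. Epithelial KRT14 and EPCAM and leukocyte CD3E and C1QA were at or near 0. The 5 pericyte and smooth muscle markers found summed to 169 to 306 CPM at 0 h and 130 to 257 CPM at 8 h, and the 7 melanocyte markers to 10.5 to 11.7 and 9.59 to 12.7 CPM, respectively. No marker found by its symbol passed the threshold at 8 h in any of the 7 cell types. The pericyte and smooth muscle marker NOTCH3 was not found by symbol, but RefSeq lists LOC789485 as NOTCH3. That row, left out of the sums, fell past the threshold, from a mean of 58.9 CPM at 0 h to 24.1 CPM at 8 h. In animal 4 at 0 h, the collagen gene COL1A1 had 67.1 bases covered for each count, while the remaining 7 libraries had 112.7 to 118.7. Whether reads of this library had been counted in another way is not known. For named genes tested with all 4 animals, it is stated where leaving out animal 4 changed a call.

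A row was past the threshold when its false discovery rate (FDR) was under 0.05 over all rows tested, its fold change was at least 2 and its average level was above 1 CPM. Rows tested were those with 1 CPM or more in at least 50% of the samples. A row under 1 CPM in every sample of 1 hour was therefore tested only if every sample of the other hour reached 1 CPM. Of 13060 symbol rows tested, 174 were past the threshold (1.33%), 117 higher (0.896%) and 57 lower (0.436%) at 8 h. The largest rises were those of chemokines, IL6 and complement factor B, while no fall reached 8-fold. In such bulk samples, a change in the share of cells of one kind and a change in RNA per cell cannot be told apart. Among the rises, 28 reached 4-fold, 10 reached 8-fold, 6 reached 16-fold and 4 reached 32-fold, against 4, 0, 0 and 0 of the falls. A mean under 1 CPM at 0 h was found for 26 of the rises, and a mean under 1 CPM at 8 h for 16 of the falls. The FDR limit alone was met by 2999 symbol rows (23.0%), 1400 higher (10.7%) and 1599 lower (12.2%), so the lean towards rises was seen at the 2-fold limit. All 4 animals moved in the same direction in 168 of the 174 rows, against 44.5% of all symbol rows tested. The 0 h and 8 h samples did not overlap in 110 of them, against 11.8% of all tested. Both counts follow in part from the choice of these rows by the same samples. The 6 rows in which 1 animal or more moved the other way were LOC784738, LOC613534, RPL7A, NR4A3, C2 and ZNF445, which were named after their values had been seen. With no replicate block, 124 rows were past the threshold, 117 of them among the 174. The median log2 fold change over all symbol rows tested was -0.0040.

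**Figure D1:**
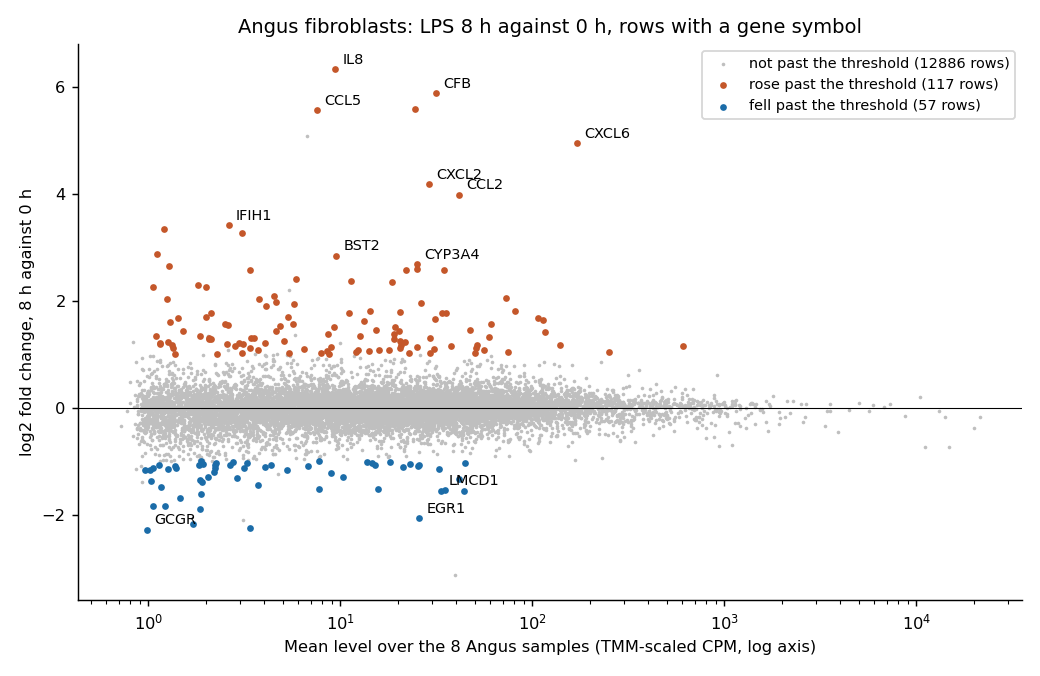
The log2 fold change of 8 h against 0 h in Angus fibroblasts is plotted against the mean level over the 8 samples (TMM-scaled CPM, log axis) for 13060 symbol rows. Orange points mark the 117 rows that rose and blue points the 57 that fell past the threshold, and grey points all others. IL8, at a log2 fold change of 6.33, is the highest point.

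The size of the rise differed among the 4 animals. Over the 117 rows that rose, the median change per animal, on the log2(CPM + 1) scale, was 1.22 in animal 1, 1.12 in animal 2, 1.66 in animal 3 and 0.81 in animal 4. Animal 3 showed the largest change of the 4 in 86 of these rows, and animal 4 the smallest in 83. This order was not seen among the 57 falls, where the medians were -0.87, -0.75, -0.97 and -0.90. Of the 0 h and 8 h libraries, the one with fewer covered bases per COL1A1 count is the 0 h sample of animal 4. In it, only 2 of the 117 rises (CFB and CXCL2) and 2 of the 57 falls (EYA4 and LOC784738) had covered bases per count outside 0.8 to 1.25 times the median of the other libraries. The part of this library in the smaller rises of animal 4 was not tested.

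Chemokines, which draw leukocytes into tissue, held 5 of the 8 largest rises, and of the 8 list members tested 5 rose and 1 fell. The median of the 8 was 4.09 on the log2 scale. IL8 and CCL5 lay under 1 CPM in every animal at 0 h and passed the filter only through their 8 h samples, so this median depends in part on the filter. IL8 (CXCL8, a neutrophil attractant, chromosome 6, 90559882 to 90563647 on build UMD v3.1) stood at 0.123, 0.240, 0.205 and 0.173 CPM at 0 h. At 8 h, IL8 reached 19.8, 9.89, 38.1 and 6.57 CPM. Every 8 h value of IL8 was far above every 0 h value, and its log2 fold change was 6.33 (SE 0.35, FDR = 1.28e-51).

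CXCL6, another neutrophil attractant (chromosome 6, 90645964 to 90648082), was already expressed at rest, at 6.19, 13.1, 18.2 and 3.67 CPM. It rose to 260, 281, 684 and 101 CPM, with a log2 fold change of 4.95 (SE 0.15, FDR = 1.41e-173). CXCL2 (chromosome 6, 90695494 to 90824841), which signals through the same neutrophil receptor, went from 2.83, 3.64, 3.33 and 1.68 CPM to 64.8, 45.2, 84.8 and 25.6 CPM. Its groups did not overlap (log2 fold change 4.19, SE 0.16, FDR = 5.83e-112). The CXCL2 row overlaps LOC100847175 and had 1.75 times the usual covered bases per count in animal 4 at 0 h, and without that animal its log2 fold change was 4.27.

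The monocyte and lymphocyte attractants rose as well. CCL5 (RANTES, chromosome 19, 14823470 to 14831157) went from 0.0615, 0.710, 0.140 and 0.241 CPM to 6.27, 16.9, 33.3 and 3.01 CPM, a log2 fold change of 5.57 (SE 0.53, FDR = 3.02e-15). CCL2 (MCP-1, chromosome 19, 16232956 to 16234822) went from 1.98, 8.09, 10.0 and 2.42 CPM to 83.2, 67.1, 120 and 39.9 CPM, or 3.99 (SE 0.30, FDR = 3.61e-29). Both genes were lowest at 8 h in animal 4 and highest in animal 3. CCL26, an eosinophil attractant, was lower at 8 h (log2 fold change -1.16, SE 0.34, FDR = 0.00652), with 0.504, 2.39, 1.44 and 0.857 CPM before and 0.191, 1.55, 1.11 and 0.113 CPM after LPS. The ranges of CCL26 overlapped, and its call was lost without animal 4, with a log2 fold change of -0.68.

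Among the 11 chemokine rows below the filter, mean levels at 8 h were at most 1.00 CPM. CCL20, which attracts dendritic cells and T cells, had 0 counts in all 4 libraries at 0 h and 41, 38, 284 and 1 counts at 8 h. Its mean at 8 h was 1.00 CPM (SD 1.33, n = 4). Summed over the 4 libraries and set against their total counts, the 364 counts at 8 h were at least 144-fold higher than the floor of 3 counts over the 0 h group, although animal 4 gave a single count. CX3CL1, a membrane-bound attractant, had 0, 1, 0 and 1 counts at 0 h and 13, 7, 52 and 1 at 8 h. CCL3, CCL4, CCL8 and CXCL11 had 0 CPM at both hours.

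The cytokine list was carried by 1 member. IL6 (chromosome 4, 31578311 to 31582679), the inducer of the acute-phase response, stood at 0.934, 0.676, 0.345 and 0.279 CPM at 0 h and at 36, 25.7, 128 and 3.83 CPM at 8 h. The groups did not overlap, but the 8 h values ranged widely between animals 3 and 4 (log2 fold change 5.58, SE 0.53, FDR = 9.61e-15). It was the only one of 8 cytokine rows tested that passed the threshold. A second row of the symbol IL6 stayed near 0. TNF, the classic early cytokine, had 0, 0, 4 and 0 counts at 0 h and 2, 1, 4 and 0 counts at 8 h, so no difference was detectable at this depth. IL1A had a mean of 0.26 CPM at 0 h and 1.2 CPM at 8 h and did not pass the filter.

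**Figure D2:**
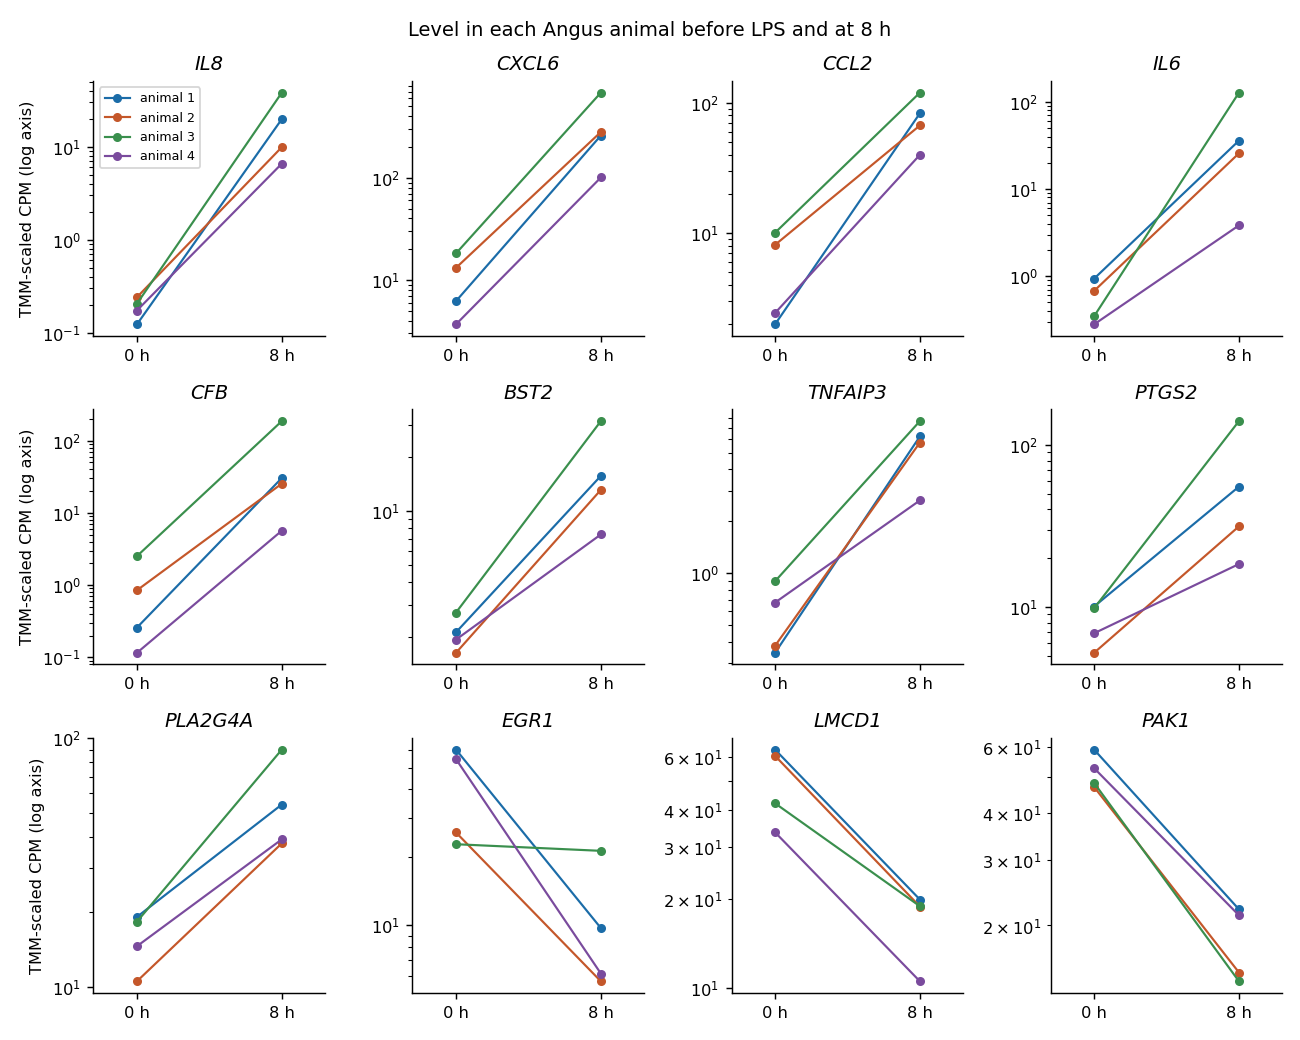
The level of 12 genes in each Angus animal is plotted at 0 h and at 8 h of LPS (TMM-scaled CPM, log axis), and a line joins the samples of 1 animal. IL8 to PLA2G4A rose in all 4 animals. EGR1, LMCD1 and PAK1 fell in all 4, with EGR1 changing little in animal 3.

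Of 19 tested rows for NF-kB subunits and their feedback inhibitors, 7 rose past the threshold, none fell, and 11 were higher by the FDR limit alone, with a median of 0.60. The inhibitors TNFAIP3 and NFKBIA had the largest changes. TNFAIP3 (A20, a ubiquitin-editing enzyme that ends NF-kB signalling) went from 0.344, 0.378, 0.896 and 0.674 CPM to 6.22, 5.74, 7.64 and 2.65 CPM, a log2 fold change of 3.26 (SE 0.31, FDR = 3.33e-19). NFKBIA (chromosome 21, 46065546 to 46068942), which holds NF-kB in the cytoplasm, went from 5.05, 5.03, 6.20 and 8.19 CPM to 33.6, 26.9, 39.6 and 24.4 CPM. Its 8 h values all lay above its 0 h values (2.35, SE 0.18, FDR = 2.14e-32). The other members called were RELB (1.78), a subunit of the non-canonical pathway, TNIP1 (1.57), a partner of A20, BIRC3 (1.44), an inhibitor of apoptosis, NFKBIZ (1.34), a nuclear co-activator, and NFKB2 (1.11). The call of NFKB2 was lost without animal 3, with a log2 fold change of 0.996. The subunit RELA, at 0.05, was not past any limit.

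No member of the receptor complex passed the threshold. TLR4 (chromosome 8, 108828899 to 108839911) stood at 0.836, 0.951, 2.72 and 0.443 CPM at 0 h and at 1.07, 1.15, 1.53 and 0.689 CPM at 8 h. The groups overlapped, and its log2 fold change of 0.07 (SE 0.26, FDR = 0.905) turned to -0.16 with no replicate block. LY96 (MD-2) had 13.3, 12.5, 13.5 and 10.8 CPM before and 12.3, 11.9, 10.4 and 12.3 CPM after LPS (-0.10, SE 0.11, FDR = 0.600). CD14 gave only 15, 9, 47 and 19 counts at 0 h and 28, 11, 94 and 7 at 8 h and was not tested, like LBP, the plasma protein that carries LPS to CD14, with a mean of 0.03 CPM at both hours. Of the 29 tested rows of the LPS receptor and TLR4 signalling list, 1 rose, and the median was -0.01.

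That row was TLR2, the receptor for bacterial lipoproteins. It went from 1.22, 0.951, 1.49 and 2.32 CPM to 7.13, 3.91, 6.33 and 6.78 CPM, with no overlap (2.04, SE 0.18, FDR = 3.05e-25). Unlike the chemokines, TLR2 was not lowest in animal 4. The adaptors MYD88 and TICAM1 and the kinase IRAK1 had log2 fold changes of -0.04, 0.36 and 0.06, and of these only TICAM1 met the FDR limit.

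Interferon-stimulated genes rose in part. Of 37 tested rows 6 rose past the threshold and none fell, 18 were higher by the FDR limit alone, and the median was 0.27. IFIH1 (MDA5, a sensor of double-stranded RNA, chromosome 2, 34216858 to 34272535) went from 0.651, 0.115, 0.756 and 0.308 CPM to 4.74, 2.84, 8.95 and 2.53 CPM, a log2 fold change of 3.41 (SE 0.23, FDR = 1.40e-42). BST2 (tetherin, which holds budding viruses at the cell surface) went from 2.11, 1.63, 2.72 and 1.93 CPM to 15.6, 13.1, 31.5 and 7.39 CPM (2.84, SE 0.22, FDR = 1.02e-30). The other called members were GBP5 (1.90), a guanylate-binding protein, MX1 (1.62), an antiviral GTPase, IRF1 (1.38), a transcription factor that NF-kB also induces, and CMPK2 (1.17), a mitochondrial nucleotide kinase.

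Other members of the list did not pass the test. IFIT1 had a log2 fold change of -0.09, STAT2 of -0.07 and USP18 of -0.12, and none of these met the FDR limit. MX1 was carried by animal 3, at 5.78 CPM before and 55.4 CPM after LPS, whereas animal 4 went from 3.1 to 6.12 CPM. The 4 calls that remained with no replicate block did not include MX1 and CMPK2. The call of CMPK2 was also lost without animal 1 (FDR = 0.0613) and without animal 3, where its log2 fold change was 0.70. Without animal 4, CMPK2 did not pass the filter.

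The 14 interferon-stimulated rows that did not pass the CPM filter had mean levels of at most 0.74 CPM at 0 h and 5.25 CPM at 8 h. ISG15, a ubiquitin-like protein attached to newly made proteins, had 2, 2, 5 and 2 counts at 0 h and 234, 223, 1356 and 59 counts at 8 h. In CPM, ISG15 reached 2.98, 2.99, 14.2 and 0.830 at 8 h, with no overlap. Without animal 4, ISG15 passed the CPM filter through its 8 h samples and rose by 7.55 (FDR = 1.57e-122). MX2 had 3, 1, 1 and 3 counts at 0 h and 59, 27, 31 and 7 at 8 h. When the filter was 10 counts in place of 1 CPM, ISG15 (log2 fold change 7.27) and DHX58 (1.52) joined the rows that rose, together with OAS1 (4.51), which lay outside the list and was named after its values had been seen.

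Class I antigen processing is the route by which cells show peptides to cytotoxic T cells. Of its 19 tested rows 12 were higher and none lower by the FDR limit alone, and 2 rose past the threshold, with a list median of 0.35. PSMB9 (an immunoproteasome subunit, chromosome 23, 7127079 to 7133609) went from 0.627, 0.756, 0.507 and 0.558 CPM to 2.77, 1.51, 2.43 and 1.14 CPM (1.61, SE 0.26, FDR = 5.38e-08). ERAP2, a peptide-trimming protease, changed by 1.00 (SE 0.13, FDR = 6.92e-12), and its call was lost without animal 3 (0.86) and with no replicate block. PSMB8 (1.00), TAP1 (0.90) and PSMB10 (0.79) met the FDR limit and did not pass the threshold.

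Complement and acute-phase proteins were moved by few members. CFB, complement factor B of the alternative pathway (chromosome 23, 27225266 to 27231292), stood at 0.258, 0.847, 2.52 and 0.116 CPM at 0 h and at 30.4, 25.4, 186 and 5.67 CPM at 8 h. The order of the animals was the same at both hours except for animals 1 and 2, and the log2 fold change was 5.88 (SE 0.25, FDR = 3.22e-90). Without animal 4, whose 0 h library had 1.60 times the usual covered bases per count for CFB, it was 5.95. Its neighbour C2 was called at 1.35 (SE 0.38, FDR = 0.00624), but went from 0.366 to 0.310 CPM in animal 4, and the call was lost without animal 1 (0.92) and with no replicate block. SAA3, a serum amyloid A protein made outside the liver, had 0 counts in all libraries at 0 h and 66, 325, 858 and 4 counts at 8 h. Its mean at 8 h was 3.56 CPM (SD 4.07, n = 4). The 1253 counts summed over the 8 h libraries, relative to their total counts, were at least 496-fold higher than the same floor. It belongs to a gene family whose members may share reads. PTX3, a secreted pattern-recognition protein, had a mean of 0.46 CPM at 0 h and 5.75 CPM at 8 h and rose by 3.13 under the 10 counts filter.

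Of the prostaglandin genes, those of the rate-setting steps were among the calls. PLA2G4A (chromosome 16, 69443238 to 69620712), the phospholipase that frees arachidonic acid, went from 19.1, 10.5, 18.3 and 14.5 CPM to 54.1, 37.7, 90.0 and 39.2 CPM (1.76, SE 0.14, FDR = 2.18e-31). PTGS2 (COX-2, the inducible cyclooxygenase, chromosome 16, 69263776 to 69271399) went from 10.0, 5.2, 9.79 and 6.86 CPM to 55.2, 31.4, 140 and 18.4 CPM (2.57, SE 0.30, FDR = 1.82e-13). LOC100138376, which overlaps PTGS2 on the other strand, had the same log2 fold change of 2.57, and their counts cannot be separated. The constitutive PTGS1 (1.03) and the prostaglandin F receptor PTGFR (1.43) were called too, PTGS1 not without animal 1 (0.98) or animal 3 (0.81), and neither with no replicate block. In all, 4 of 10 tested rows rose and none fell, with a median of 0.48.

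Antioxidant and metal-binding genes split. SOD2, the mitochondrial superoxide dismutase, went from 1.73, 1.65, 2.96 and 2.16 CPM to 4.25, 5.98, 24.1 and 2.27 CPM (1.57, SE 0.37, FDR = 0.00105), so that animal 4 hardly changed. MT2A, a metallothionein, rose by 1.67 (SE 0.31, FDR = 1.50e-05) and was not called with no replicate block. By the FDR limit alone 5 of the 19 rows were higher and 6 lower, among the latter the NRF2 targets NQO1 (-0.67), SLC7A11 (-0.48) and HMOX1 (-0.44), and the median was 0.06.

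Of 17 tested adhesion and immune surface rows, 2 rose. CD40, a co-stimulatory receptor, went from 7.09, 7.88, 6.93 and 10.2 CPM to 22.3, 19.8, 33.8 and 15.2 CPM (1.46, SE 0.23, FDR = 2.61e-08), and IL15RA, which presents interleukin 15, rose by 1.08 (0.94 and not called without animal 3). VCAM1, which tethers leukocytes, was below the filter and rose by 4.48 under the 10 counts filter, from a mean of 0.28 CPM to 6.69 CPM. The row of ICAM1 that met the FDR limit changed by 0.65. None of the 15 STAT and SOCS rows tested was past the threshold, including SOCS3 at 0.51 (FDR limit not met), while 3 were higher by the FDR limit alone. With the other lists, the background is 0.896% of rows higher and 0.436% lower past the threshold, or 10.7% and 12.2% by the FDR limit alone.

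**Figure D3:**
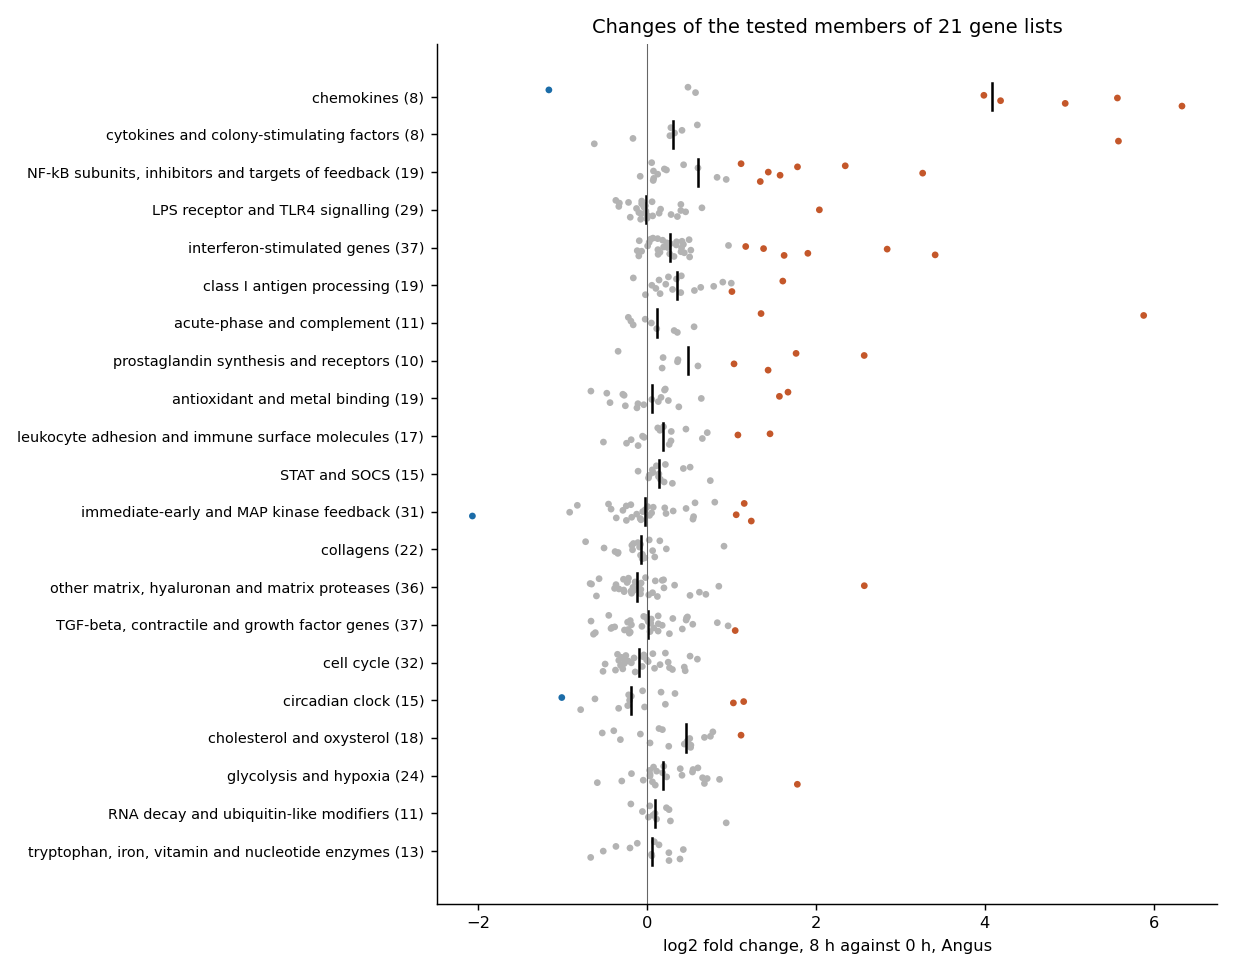
Each point is the log2 fold change (8 h against 0 h, Angus) of 1 tested row of the gene list named on the left, with the number of rows in parentheses. Orange and blue points rose and fell past the threshold, grey points did not pass it, and a black bar marks the median of the list. Chemokines have the highest median, 4.09, although some of their rows passed the filter only through their 8 h samples. The matrix, cell cycle and signalling lists lie around 0.

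Of the immediate-early genes, which cells induce within minutes of a stimulus, 3 rows rose and 1 fell. EGR1, a growth-factor-induced transcription factor (chromosome 7, 51438972 to 51441815), fell from 60.1, 25.8, 22.9 and 54.5 CPM to 9.73, 5.65, 21.4 and 6.12 CPM, a log2 fold change of -2.07 (SE 0.38, FDR = 2.55e-05). Animal 3 hardly moved, and the groups did not overlap. The nuclear receptors NR4A2 (1.23) and NR4A3 (1.06) and the stress gene IER3 (1.15) were called as rises. All 3 calls were lost without animal 3, where the values were 0.95, 0.615 and 0.95. NR4A3 was also lost without animal 1 (0.99) and by the quasi-likelihood test. Of the 31 rows tested, 9 were higher and 8 lower by the FDR limit alone, and the median was -0.02.

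Matrix genes, the main products of fibroblasts, gave few calls. None of 22 collagen rows was past the threshold, with a median of -0.08, and 1 was higher and 4 were lower by the FDR limit alone. COL1A1 was at -0.73 without meeting the FDR limit, and its 0 h level in animal 4 comes from the library with fewer covered bases per COL1A1 count. Among 36 other matrix rows 1 rose and 14 were lower by the FDR limit alone, including ELN (-0.57), the elastin gene, and DCN (-0.18), the decorin gene. The riser was HAS2 (hyaluronan synthase, chromosome 14, 19703611 to 19733798), which went from 0.836, 0.825, 0.788 and 1.39 CPM to 4.25, 6.15, 8.08 and 4.63 CPM (2.57, SE 0.25, FDR = 1.56e-20). In the list of TGF-beta, contractile and growth factor genes 1 of 37 rows rose, the matrix protein TGFBI (1.04), which was called neither without animal 1 (0.98) nor without animal 3 (0.77). Of 32 cell cycle rows none passed the threshold, with a median of -0.10.

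Of 15 clock rows tested 2 rose and 1 fell past the threshold, 3 were higher and 4 lower by the FDR limit alone, and the median was -0.19. ARNTL (BMAL1, the positive arm of the clock) went from 15, 15.9, 14.3 and 17.5 CPM to 33.1, 32.1, 35.0 and 38.6 CPM, a similar rise in each animal (1.14, SE 0.08, FDR = 1.05e-41). NPAS2, a partner of ARNTL, rose by 1.02, and DBP, an output gene that ARNTL drives, fell by 1.01. NPAS2 (0.99 without animal 2 and 0.96 without animal 3) and DBP (-0.99 without animal 1 or animal 3) then lay under 2-fold. PER2 (-0.79) and PER3 (-0.62) met the FDR limit only. Time in culture differed between the groups along with LPS.

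Metabolic lists had 1 call each or none. SLC2A1 (GLUT1, the glucose transporter) went from 17.9, 14.8, 10.6 and 17.1 CPM to 55.9, 45.9, 70.1 and 38.0 CPM (1.78, SE 0.21, FDR = 5.27e-14) and was the only 1 of 24 glycolysis and hypoxia rows past the threshold. CYP7B1, which clears 25-hydroxycholesterol, rose by 1.11 (0.76 and not called without animal 3). In the cholesterol list 10 of 18 rows were higher by the FDR limit alone, with a median of 0.46, among them the synthesis enzymes HMGCS1 (0.78) and SQLE (0.75). No row was called among 11 RNA decay genes, where ZC3H12A, an RNase that cuts cytokine transcripts, stood at 0.94, or among 13 enzymes of tryptophan, iron and related metabolism.

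Several of the largest rises belonged to no list. OCLN, the tight junction protein occludin, went from 0.184, 0.252, 0.205 and 0.183 CPM to 1.63, 1.89, 3.80 and 1.55 CPM (3.34, SE 0.26, FDR = 1.52e-35). CYP3A4 (chromosome 25, 37125929 to 37175162), a drug- and steroid-metabolising cytochrome P450, went from 4.01, 4.63, 6.45 and 4.13 CPM to 24.9, 26.2, 119 and 11.4 CPM (2.68, SE 0.33, FDR = 2.00e-11). The CYP3A4 row overlaps CYP3A5, and reads of these near-identical genes may have been split between them. TGM3, a transglutaminase, went from 5.2, 6.92, 3.44 and 12.4 CPM to 44.5, 28.8, 77.7 and 21.6 CPM (2.60, SE 0.44, FDR = 5.85e-06). PDPN (podoplanin, a surface protein of activated fibroblasts) changed by 2.41, SERPINB2 (an inhibitor of plasminogen activators) by 2.38, KCNN4 (a calcium-activated potassium channel) by 2.64 and SLCO4A1 (an organic anion transporter) by 2.88. In each of these 7 genes, the 0 h and 8 h samples did not overlap, against 11.8% of all symbol rows tested. This follows in part from the choice of the genes by the same samples. OCLN and SLCO4A1 lay under 1 CPM in every animal at 0 h and passed the filter only through their 8 h samples. For these, the lack of overlap was fixed by the filter.

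The falls were smaller and more even among the animals. PAK1, a kinase of the actin cytoskeleton (chromosome 29, 18684328 to 18780241), went from 59.1, 47.0, 48.2 and 52.7 CPM to 22.1, 15, 14.2 and 21.3 CPM (-1.54, SE 0.09, FDR = 3.07e-54). LMCD1, a LIM-domain cofactor of transcription (chromosome 22, 17961210 to 18018234), went from 63.8, 60.8, 42.0 and 33.6 CPM to 19.9, 18.9, 18.9 and 10.6 CPM (-1.55, SE 0.11, FDR = 3.74e-42). These were the only 2 of the 15 largest falls, besides EGR1 and SEMA5B, that had a mean above 20 CPM at 0 h.

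SEMA5B, a semaphorin (guidance protein), went from 17.7, 33.5, 25.4 and 15.7 CPM to 6.38, 13.7, 6.46 and 6.11 CPM (-1.53, SE 0.12, FDR = 1.53e-30). SESN3, a stress-induced sestrin, went from 10.7, 12.0, 13.8 and 8.95 CPM to 3.16, 5.24, 4.05 and 3.60 CPM (-1.51, SE 0.14, FDR = 6.39e-25). Neither gene overlapped between the hours. FGFR3, a fibroblast growth factor receptor, fell from 4.41, 6.48, 2.62 and 8.21 CPM to 1.29, 2.39, 1.28 and 2.90 CPM (-1.45, SE 0.16, FDR = 6.47e-18). Its groups overlapped by 1 sample, although each animal fell.

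The remaining 9 of these falls had means of 1.57 to 2.83 CPM at 0 h. They were the glucagon receptor GCGR (-2.28), LOC787237 (-2.17), the kinase RPS6KA1 (-1.89), PTCHD1 (-1.84), TCEA3 (-1.83), FAIM2 (-1.69), LOC540312 (INTS6L in RefSeq, -1.62), the Wnt inhibitor APCDD1 (-1.48) and the lipid-transfer protein STARD10 (-1.38). FAIM2 was called neither without animal 1 (-1.02, FDR = 0.0785) nor without animal 4 (-1.19, FDR = 0.0955), nor by the quasi-likelihood test, and its groups overlapped. RPS6KA1, which hardly fell in animal 3 (3.13 to 2.28 CPM), was not called with no replicate block. GCGR kept its direction without animal 2 (-2.60) or animal 3 (-2.59) but lay under the CPM limit. HDAC9, a class II histone deacetylase (chromosome 4, 27066696 to 27268346), went from 17.6, 12.4, 13.9 and 12.7 CPM to 8.89, 3.06, 4.03 and 9.62 CPM (-1.30, SE 0.24, FDR = 3.28e-06), with no overlap.

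To show which levels at 8 h differed from those at 2 h, the Angus samples of both hours were compared directly. The library of animal 3 at 2 h had 66.9 bases covered for each COL1A1 count, against 113.2 to 119.0 in the other libraries at 2 h. It held 79.47% of its counts in symbol rows, and its TMM factor was 0.832. Whether its reads had been counted in another way is not known. Without animal 3, the 9 genes named for this comparison that were tested kept their calls. Of 12976 symbol rows tested, 339 were past the threshold (2.61%), 152 higher (1.17%) and 187 lower (1.44%) at 8 h. This comparison shares the 8 h samples with that against 0 h, and values are therefore given side by side only. The chemokines did not follow one course. CXCL6 was higher at 8 h than at 2 h by 0.97 and CCL5 by 0.90, both just under 2-fold, and CFB by 2.33 (SE 0.17, FDR = 2.42e-36). CXCL2 was lower and past the threshold (-1.29, SE 0.18, FDR = 5.02e-11), while IL8 (-0.93) and CCL2 (-0.59) met the FDR limit only, which alone was met by 35.1% of the symbol rows tested. IL6, at -0.36 (SE 0.20, FDR = 0.172), did not pass.

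Among the feedback and prostaglandin genes, some were lower at 8 h than at 2 h and others were not. TNFAIP3 had a mean of 24.4 CPM at 2 h (SD 18.6, n = 4) and was lower at 8 h (-1.90), as were NFKBIA (-1.27), NFKBIZ (-1.51), PTGS2 (-2.09) and HAS2 (-1.24), all past the threshold. PLA2G4A was higher at 8 h (1.43) and past the threshold. PTGS1 (0.97), PTGFR (0.79) and NFKB2 (0.34) met the FDR limit only, and TNIP1 (0.13) did not. Larger falls from 2 h were those of FOSB (-6.08), an AP-1 subunit, XIRP1 (-5.62), an actin-binding protein, EGR3 (-5.08), the IL6-family cytokine LIF (-3.61) and C13H20orf112 (-3.31). FOSB stood at 0.504, 0.424, 0.497 and 0.587 CPM at 0 h, at 23.9, 35.3, 33.0 and 19.0 CPM at 2 h and at 0.536, 0.268, 0.649 and 0.211 CPM at 8 h. Its 8 h values were thus near those before LPS.

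Of the 6 interferon-stimulated genes that had risen against 0 h, 4 were past the threshold as higher at 8 h than at 2 h, namely IFIH1, GBP5 (2.08), BST2 (1.74) and MX1 (1.57). Over all symbol rows tested, that share was 1.17%. The 6 genes had been chosen by the same 8 h samples, so their count follows in part from that choice. IRF1 was lower by the FDR limit alone (-0.86), and CMPK2 (-0.21) did not pass. IFIH1 was higher at 8 h than at 2 h by 2.94 (SE 0.30, FDR = 8.16e-19) and ISG15 by 3.11 (SE 0.30, FDR = 9.93e-23), which was not called with no replicate block. KCNE4, a potassium channel subunit (3.37), and TXNIP, an inhibitor of thioredoxin (2.56), were also higher at 8 h, as was LOC100848155 (2.61), which overlaps TXNIP. TXNIP had 41.2, 43.4, 60.0 and 36.4 CPM at 0 h, 9.62, 11.1, 9.17 and 9.51 CPM at 2 h, and 62.8, 52.7, 72.3 and 46.8 CPM at 8 h. KCNE4 likewise had a mean of 0.696 CPM at 2 h (SD 0.841, n = 4), and against 0 h its 8 h level differed by 0.22 (SE 0.14, FDR = 0.261).

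**Figure D4:**
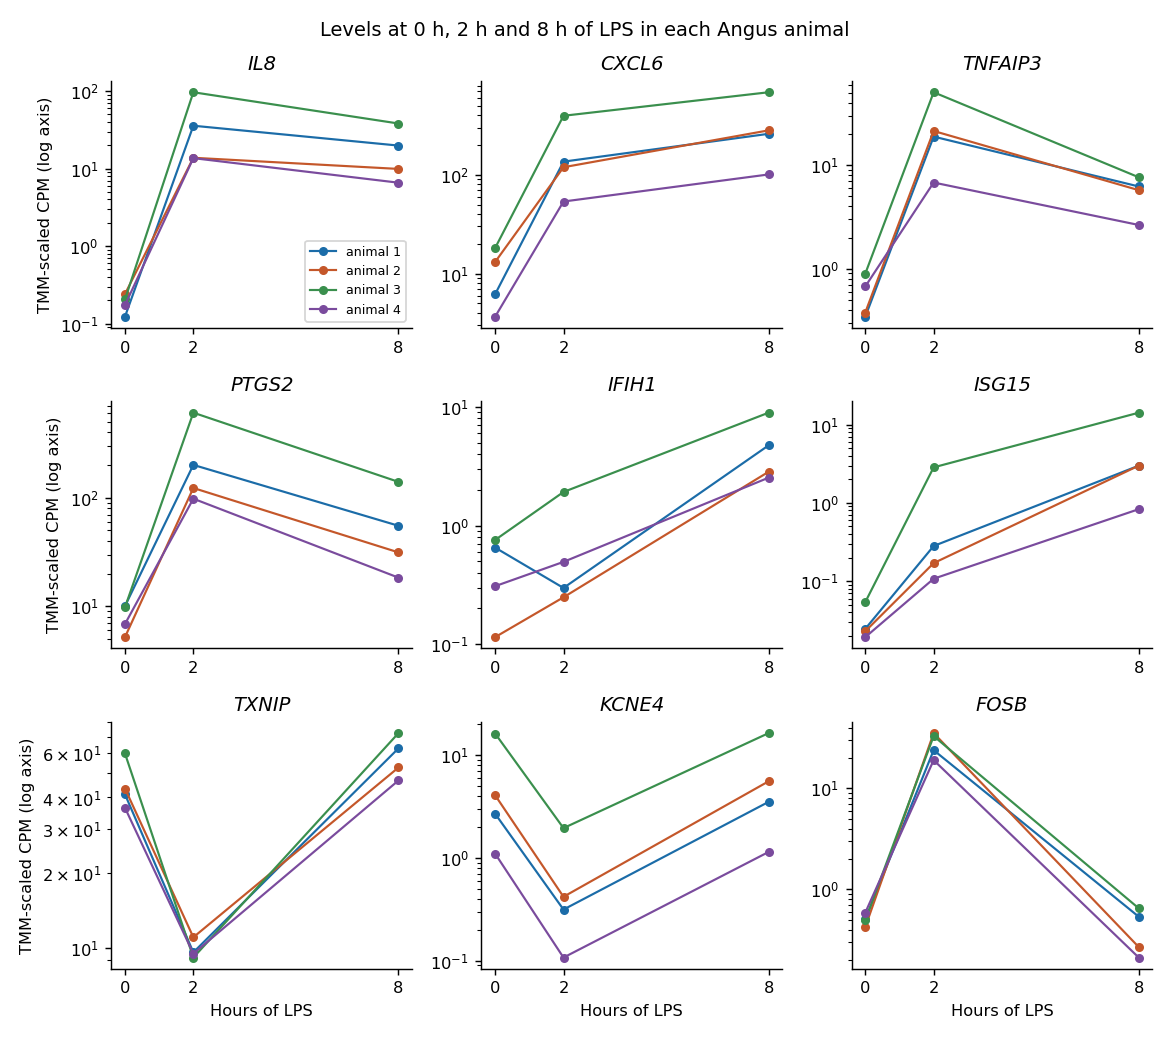
The levels of 9 genes are plotted for each Angus animal at 0 h, 2 h and 8 h of LPS (TMM-scaled CPM, log axis). TNFAIP3, PTGS2 and FOSB are highest at 2 h, IFIH1 and ISG15 at 8 h, and TXNIP and KCNE4 are lowest at 2 h in all 4 animals.

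Whether the Angus response at 8 h differed from that of Holstein fibroblasts was tested by the interaction of breed and LPS over 16 samples. Of 13006 symbol rows tested, 62 were past the threshold (0.477%), 53 with a larger log2 change in Holstein (0.408%) and 9 with a smaller one (0.0692%). The changes of the animals did not overlap between the breeds in 41 of the 62, against 7.87% of all rows tested. That share follows in part from the choice of the 62 by the same samples. The count of 62 depended on the test: the quasi-likelihood test called 14 rows and the fit with no replicate block 15. Without Angus animal 3, which had the strongest rises, 110 rows were past the threshold, and without Holstein animal 4 there were 39. A fit was also made without the 3 animals whose 0 h library had fewer covered bases per COL1A1 count (Angus animal 4 and Holstein animals 2 and 4). It was chosen after the data had been seen and gave 31 rows.

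IL8 differed most among the rows with no overlap. In Holstein it went from 0.0898, 0.0732, 0.0545 and 0.0661 CPM to 49.8, 125, 73.4 and 91.7 CPM, each 8 h value above the highest Angus value of 38.1 CPM. The difference of the log2 changes, Holstein minus Angus, was 3.79 (SE 0.57, FDR = 2.36e-08), but the quasi-likelihood test did not call it. Mean IL8 levels were 0.071 CPM in Holstein and 0.185 CPM in Angus at 0 h, and 84.9 and 18.6 CPM at 8 h. The lower Holstein level at 0 h, near the floor (0.059 CPM in Holstein animal 4), is thus part of the difference and rests on few counts. CXCL2 (1.52), CXCL6 (1.01), NFKBIA (1.46), CFB (1.82) and HAS2 (1.85) rose less in Angus too, although the quasi-likelihood test called only CXCL2 and NFKBIA of these 5. For CCL2 (0.01, SE 0.42, FDR = 0.998) and TNFAIP3 (0.68, SE 0.44, FDR = 0.588) no difference was shown. With such SEs, a difference above 2-fold can go undetected, as for NR4A3 (1.28, SE 0.44, FDR = 0.114).

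Interferon-stimulated genes held 13 of the 53 rows with a larger change in Holstein, out of 39 of the list tested for it, and none with a smaller one. Over the list, the median difference was 0.72 against -0.02 over all symbol rows tested. The list median of the 8 h change was 0.27 in Angus, as given above, and 1.27 in Holstein. Each median covers the rows that passed the filter in that breed, so the 2 sets of rows differ. ISG15 (8.64) and MX2 (8.70), for instance, entered the Holstein median only. IFIH1 went from 0.389, 0.629, 0.392 and 0.463 CPM to 17.3, 11.1, 19.9 and 21.4 CPM in Holstein, every 8 h value above the highest in Angus (difference 1.75, SE 0.39, FDR = 0.00209), but the quasi-likelihood test did not call it. IFIT1 (1.16), RNF213 (1.27), SAMD9 (1.38) and USP18 (1.38) changed by no more than 0.23 in Angus and were among the 13. With the quasi-likelihood test 6 members of the list were called, IFIT1, RNF213 and SAMD9 but not USP18 among them, and with no replicate block 4.

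Further rows with no overlap were LOC511531 (2.40), CMPK2 (2.03) and PSMB9 (1.83), of which the quasi-likelihood test called LOC511531 only. Of the 5 rows with a smaller log2 change in Holstein named next, it called FIBP only. In the direction of a smaller log2 change in Holstein, HDAC9 (-1.70, SE 0.37, FDR = 0.00115) fell in both breeds, and in Holstein it went from 15.3, 19.6, 12.7 and 21 CPM to 2.25, 2.67, 2.19 and 1.47 CPM. FIBP, an intracellular partner of fibroblast growth factor 1, had 34.2, 56.2, 37.7 and 35.3 CPM at 0 h and 42.3, 60.8, 67.4 and 39.3 CPM at 8 h in Angus. In Holstein, FIBP went from 68.2, 58.3, 60.3 and 62.9 CPM to 32.2, 40.8, 35.8 and 37.5 CPM (difference -1.13, SE 0.17, FDR = 7.15e-08). The difference was -0.97 without Angus animal 3, under 2-fold. NPM1 (-1.08), SHROOM1 (-1.19) and KIAA0226L (-1.09) completed the group, and each lost its call when 1 animal was left out (the values nearest 0 were -0.91 for NPM1, -0.92 for SHROOM1 and -0.87 for KIAA0226L).

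**Figure D5:**
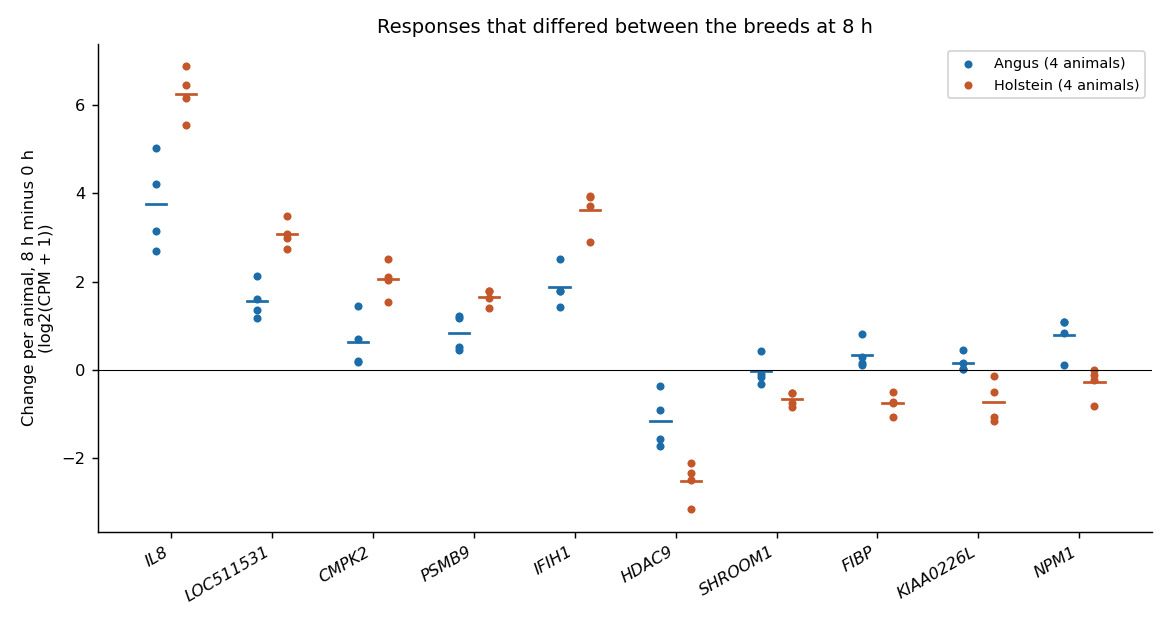
Each point is the change from 0 h to 8 h in 1 animal, on the log2(CPM + 1) scale, for 10 genes whose response differed between Angus (blue) and Holstein (orange), 4 animals each, and short bars mark the means. IL8 to IFIH1 rose more in every Holstein animal than in any Angus animal, and for HDAC9 to NPM1 the Angus points lie above the Holstein points.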

How the data were processed

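Polyadenylated RNA was sequenced, and the authors used NextGENe to align the reads to UMD v3.1, a bovine assembly. The deposited tables give raw read counts for each row (a gene span or an interval without a symbol) without normalization, and a coverage signal that was used only to check how the authors had counted reads. Counts and rows without a symbol entered the fits, and only symbol rows are described. They took 85.23% to 87.14% of the counts in the 8 Angus libraries. Summed counts were 1.5 to 1.575 times the matched reads, so a read could count for several rows, and strand was not used to separate overlapping genes. Exon and untranslated region context was not analysed here, and no sequence was at hand.

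Counts were fitted with edgeR 4.0.16 in R 4.3.3 (TMM, generalized linear model, likelihood-ratio test, Benjamini-Hochberg FDR), with the animal as a block. The study's methods name edgeR, the likelihood-ratio test and the CPM filter, and name neither TMM nor a block. As a check, deviations from the group means correlated across genes at 0.677 to 0.787 between both hours of one animal, and at -0.611 to 0.269 between animals. The pairing itself comes from the labels. All 12 pairs of replicates differed beyond sampling noise, with a chi-square of 68.2 to 453.9 for each degree of freedom. The comparison of 8 h with 2 h and the interaction were fitted in the same way. Fold changes are log2 from the fit, SEs come from the information matrix, and changes per animal use a pseudocount of 1 CPM. With the animal as a block, the p-values measure the spread of the change between the hours among 4 animals per breed, each with 1 culture.

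Alternatives were the fit with no replicate block, the quasi-likelihood test, DESeq2 1.42.0, other scalings and filters, and leaving out each animal. The code was also run on simulated counts for these samples with known changes. Named genes were the 20 largest rises and 15 largest falls past the threshold shared by all 4 animals, called members of 21 gene lists, the 5 largest differences in each direction for the other comparisons with the animals separated or in the same direction, and 14 genes fixed by name. Members and lists were chosen with earlier results of these data known. Symbols beginning with LOC were looked up by gene ID in RefSeq (assembly ARS-UCD2.0, names only), where 10 of 18 were found.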

Additional observations from a re-analysis of the deposited data

Results flagged for a closer look

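Of 178 groups of 4 samples examined for a single distant value, 14 had one by Dixon's criterion, and chance marks about 1 in 20 such groups. At 8 h in Angus, animal 3 stood apart from the other animals with 186.29 CPM of CFB, 118.8 CPM of CYP3A4, 3.7978 CPM of OCLN, 2.2808 CPM of RPS6KA1, 24.126 CPM of SOD2 and 14.187 CPM of ISG15. Animal 4 was apart and low at 8 h for LMCD1, with 10.567 CPM, and animal 2 was apart and high for SEMA5B, with 13.709 CPM. At 0 h, the distant values were 1.3864 CPM of HAS2 in animal 4, 56.151 CPM of FIBP in animal 2, 3.9082 CPM of STARD10 and 5.2253 CPM of DBP in animal 3, and, at a few counts only, 0.05398 CPM of ISG15 and 0.043184 CPM of TNF in animal 3.

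For 24 named genes the 8 h response differed between the breeds by the interaction test. The difference of log2 changes, Holstein minus Angus, was positive for IL8 (3.7929), TGM3 (2.7701), LOC511531 (2.3972), MX1 (2.2179), CMPK2 (2.0256), HAS2 (1.848), MT2A (1.8354), PSMB9 (1.8297), CFB (1.819), IFIH1 (1.7506), PDPN (1.7013), CXCL2 (1.5228), CYP7B1 (1.4817), NFKBIA (1.4629), GBP5 (1.388), IRF1 (1.3378), PTGS1 (1.2398), LIF (1.1286) and CXCL6 (1.0113). It was negative for HDAC9 (-1.7048), SHROOM1 (-1.193), FIBP (-1.1285), KIAA0226L (-1.0943) and NPM1 (-1.0812).

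In the rows without a gene symbol, which the comparisons above do not describe, 80 of 7557 intervals tested were past the threshold at 8 h against 0 h in Angus, 51 higher and 29 lower.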

How the results depend on the processing

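The count of 174 rows at 8 h against 0 h stayed within 1.5 times under all but 2 of its alternatives: the quasi-likelihood test with no replicate block called 64 rows, and the FDR limit alone 2999. Leaving out each animal gave 146 to 228 rows. The replicate block, with animals paired by label, gave 174 rows against 124 with no replicate block, and 339 against 293 for 8 h against 2 h. For the interaction, the count of 62 rows moved to 15 with no replicate block and to 14 by the quasi-likelihood test. It moved to 39 to 110 when each animal was left out, and to 31 without the 3 animals whose 0 h library had fewer covered bases per COL1A1 count. The cause of these moves was not tested. The upper-quartile and RLE scalings gave 176 rows each for the main comparison. Among 70 named genes in the main comparison, the only reversals were those of TLR4, which was never called: -0.16 with no replicate block, -0.157 with that and the quasi-likelihood test, -0.096 to 0.404 when each animal was left out, and -0.439 without the 0 h sample of animal 4 and no replicate block. With no replicate block 12 of the 70 lost their call, and DESeq2 and the quasi-likelihood test each lost the calls of 3 of the 70 genes. Of 10 genes named for 8 h against 2 h, 1 lost its call, with no replicate block. With 4 animals, animal differences as large as that between animals 3 and 4 weigh on every estimate. Levels under about 1 CPM rest on few counts, and genes that were near 0 before LPS have folds that depend on a handful of reads. No 8 h culture without LPS was analysed here.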

Other observations

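Among rows past the threshold that lie outside the lists, several belong to coagulation, its receptors and the breakdown of fibrin. They were picked after their values had been seen, and no test was made of them as a group. F3 (tissue factor, which starts coagulation) had a mean of 36.1 CPM at 0 h (SD 15.9, n = 4) and 127 CPM at 8 h (SD 55.7), with a log2 fold change of 1.82. F2R, the thrombin receptor, changed by 1.98, PLAUR, the urokinase receptor, by 1.68 from a mean of 50.8 CPM, and the protease inhibitor SERPINE2 by 1.18. Both kinin receptors, BDKRB1 (1.19) and BDKRB2 (from a mean of 2.80 to 7.34 CPM), were past the threshold as well. The 0 h and 8 h samples of SERPINE2, BDKRB1 and BDKRB2 overlapped, and SERPINE2 and BDKRB1 were not called with no replicate block.

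Receptors and growth factors of other kinds also rose. IL1RL1, the receptor of IL33, changed by 1.81 and IL18R1 by 1.08, WNT5A by 1.51, VEGFC by 1.07, and the adenosine receptor ADORA2B by 2.26. Among the falls were genes of epithelial junctions and basement membrane, namely PPL (-1.05), DSC3 (-1.08), LAMA5 (-1.02) and LAMB3 (-1.06), and LOC789485 (-1.34), which RefSeq lists as NOTCH3, with a mean of 58.9 CPM at 0 h and 24.1 CPM at 8 h. With no replicate block DSC3, LAMB3 and LOC789485 were not called. These too were chosen after their values had been seen. Not all genes of epithelial junctions fell, as the tight junction gene OCLN rose by 3.34.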
